A study of Mus musculus with 8 samples.

Results

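The genes described are the 10 that encode the invariant chains of the T cell receptor complex, its coreceptors and the first kinases and adaptor of its signal. They are Cd3e, Cd3d, Cd3g and Cd247, the coreceptor genes Cd4, Cd8a and Cd8b1, and Lck, Zap70 and Lat. They were chosen by symbol: every non-control probe whose RefSeq accession maps to one of these symbols was taken. This gave 18 of the 32994 probes with a gene symbol, and 10 of the 22911 genes with a probe. Cd3e, Cd3d, Cd4, Cd8a, Lck and Zap70 have 2 probes each, Cd247 has 3, and Cd3g, Cd8b1 and Lat have 1 each. All 10 genes were well above background on at least 1 array of each set of samples. On their brightest probes, only Cd3g, Cd8a and Cd8b1 were not so on every array.

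The study measured mouse RNA on 8 one-colour arrays, 1 array per group, in a stroke model. For 4 arrays the RNA came from a brain slice on the ischemic side, or the same slice of sham-operated brains, at day 14. These were taken from wild-type (WT) mice and from DEREG mice, each after sham surgery and after ischemia. DEREG mice carry a transgene in which Foxp3 control elements drive a diphtheria toxin receptor, so that toxin can remove regulatory T cells (Treg). The labels do not say whether toxin was given. The other 4 arrays hold RNA of CD4+ T cells: Treg and nonTreg cells from the brains of ischemic WT mice at day 14, and Treg and nonTreg cells from the spleens of untreated mice. The labels give neither how Treg and nonTreg were separated, nor strain, sex or age, nor whether several animals were pooled. With 1 array per group there are no replicates and no test, so a difference compares these arrays only. The error that could be measured is technical: the median SD between repeat spots of a probe was 0.040 on the log2 scale.

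The T cell receptor recognises peptide through its variable chains, which have no signalling tail of their own. The CD3 epsilon, delta and gamma chains and the CD247 zeta chain carry the motifs that are phosphorylated by Lck, which is brought to the complex by CD4 or CD8. Zap70 then docks on these motifs and phosphorylates Lat, the membrane adaptor on which the downstream signalling proteins assemble. The healthy brain parenchyma holds few T cells, and they enter it after stroke.

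Values are given first as processed signals, the background-subtracted brightness of a probe in arbitrary units. Differences are log2 differences after each signal was divided by the 75th percentile of its array, so that a difference of 1 is 2-fold. Signals of different probes cannot be set against each other, because probes differ in binding. Where a probe was not well above background on 1 of the arrays compared, the difference is a lower bound and is given as "at least". Tissue arrays were compared only with tissue arrays, and T cell arrays only with T cell arrays. The share of probes well above background was 62.0% to 65.1% on tissue arrays and 47.6% to 51.9% on T cell arrays. In each set, several comparisons share an array, so their values are not independent. In whole tissue, fewer cells of a type and less RNA per cell cannot be told apart. The Treg labels were checked with Foxp3, the transcription factor that defines Treg. Its signal was 7017 in spleen Treg and 4717 in brain Treg, against 820.5 in brain nonTreg. Spleen nonTreg had 9.75, which did not clear background, and neither did Foxp3 on any of the 4 tissue arrays.

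Cd3g, Cd3d and Cd3e lie next to each other on chromosome 9 with no listed gene between them, and Cd8b1 and Cd8a are neighbours on chromosome 6. The RefSeq promoter windows of the CD3 neighbours are shown because their brightest probes were highest in DEREG ischemia and lowest in the shams. The second Cd3e probe differed, with DEREG sham above WT ischemia. The Cd8a window is shown because that gene followed another order in the T cells, although its brightest probe shared the tissue pattern. Each window holds the 250 bases before the gene's start (assembly GRCm38.p6), read 5′ to 3′ on the gene's strand. Capitals mark matches on either strand to TGNGGT, the core of the RUNX factor motif (TGNGGT or its reverse complement), and to GGAAG, a core of the ETS factor motif.
Cd3g, chr9:44980432-44980681, minus strand: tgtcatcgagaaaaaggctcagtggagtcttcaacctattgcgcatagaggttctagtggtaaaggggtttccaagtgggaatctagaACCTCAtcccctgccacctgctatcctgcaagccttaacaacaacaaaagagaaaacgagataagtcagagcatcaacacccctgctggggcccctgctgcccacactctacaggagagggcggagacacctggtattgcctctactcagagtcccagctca
Cd3d, chr9:44981536-44981785, plus strand: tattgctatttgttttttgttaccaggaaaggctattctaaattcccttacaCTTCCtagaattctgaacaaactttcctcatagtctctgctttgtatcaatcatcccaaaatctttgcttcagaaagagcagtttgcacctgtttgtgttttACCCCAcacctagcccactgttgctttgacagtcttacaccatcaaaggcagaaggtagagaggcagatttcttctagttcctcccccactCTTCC
Cd3e, chr9:45009612-45009861, minus strand: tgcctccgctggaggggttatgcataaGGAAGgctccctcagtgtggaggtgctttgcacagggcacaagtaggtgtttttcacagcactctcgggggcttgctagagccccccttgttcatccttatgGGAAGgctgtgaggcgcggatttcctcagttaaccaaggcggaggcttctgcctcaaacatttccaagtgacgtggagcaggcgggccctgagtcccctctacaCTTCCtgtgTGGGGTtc
Cd8a, chr6:71373177-71373426, plus strand: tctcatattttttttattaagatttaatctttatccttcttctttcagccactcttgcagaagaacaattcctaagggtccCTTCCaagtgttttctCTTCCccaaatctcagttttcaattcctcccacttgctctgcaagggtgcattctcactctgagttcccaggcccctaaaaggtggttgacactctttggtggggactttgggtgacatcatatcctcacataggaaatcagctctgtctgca
The Cd3g window holds 1 RUNX and 0 ETS matches, the Cd3d window 1 and 2, the Cd3e window 1 and 3, and the Cd8a window 0 and 2. No RUNX match overlaps an ETS match in them. Of 32536 promoter windows of this length in the table, 40.2% hold at least 1 match to TGNGGT and 64.1% at least 1 to GGAAG. The TATA box letters, TATAAA, have no match in these 4 windows and at least 1 in 12.3% of all windows. A match describes letters only.

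In brain tissue, most of the receptor genes were highest on the DEREG ischemia array. Against WT ischemia, 8 of the 10 genes were at least 2-fold higher there and none was 2-fold lower, where 2.36% of the 16857 genes compared were 2-fold higher and 5.37% lower. The median difference of the 10 genes was 1.92, beside 0.08 for all genes compared. Cd8b1, Cd3g, Cd8a and Cd3d differed most. Cd247 and Cd4 were within 2-fold on their brightest probes. No alternative way of processing gave fewer than 8.

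Cd3d encodes the delta chain. Its brighter probe had signals of 16.8 (WT) and 42.5 (DEREG) after sham surgery, and 201 (WT) and 1398 (DEREG) after ischemia. Both sham arrays were low and DEREG ischemia stood far above the rest. DEREG ischemia was 7.06-fold higher than WT ischemia (log2 difference 2.82). The second probe, at 132 in WT ischemia and 952 in DEREG ischemia, gave 2.87. Within a genotype, ischemia exceeded sham by 3.55 in WT and by 5.13 in DEREG.

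Cd3g, the gamma chain, gave signals of 2.92 and 2.66 on the WT and DEREG sham arrays, neither well above background. It reached 39.0 in WT ischemia and 315 in DEREG ischemia, a difference of 3.04. Cd3g was thus detected in ischemic tissue of both genotypes and in neither sham. Ischemia exceeded sham by at least 1.70 in WT and at least 4.93 in DEREG.

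Cd3e, the epsilon chain present in every CD3 dimer, has a bright probe and a dim one. The bright probe read 308 and 343 on the WT and DEREG sham arrays, and 412 and 1032 on their ischemia arrays. The 3 lower arrays lay close together and DEREG ischemia stood 2.54-fold above WT ischemia (1.35). The dim probe read 8.22, not well above background, and 42.8 on the WT and DEREG sham arrays, and 33.4 and 71.5 on their ischemia arrays. Its order differed, with DEREG sham above WT ischemia. Between the ischemic arrays both probes went the same way, and the dim probe gave 1.12. Against its sham, WT ischemia was higher by 0.39 on the bright probe and by at least 1.47 on the dim one. The same comparison in DEREG gave 1.68 and 0.83.

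Cd247, the zeta chain, differed from the CD3 chains on its bright probe. That probe had signals of 172 (WT) and 218 (DEREG) after sham surgery, and 294 (WT) and 399 (DEREG) after ischemia. The signals climbed in that order in small steps, and DEREG ischemia exceeded WT ischemia by only 0.46. The second probe was well above background in DEREG ischemia alone, at 16.0, against 4.74 in WT ischemia, which sets the difference at no less than 0.53. The third probe was not well above background on any tissue array, its highest signal being 6.02. Only the bright probe was measured on both ischemic arrays.

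**Figure D1:**
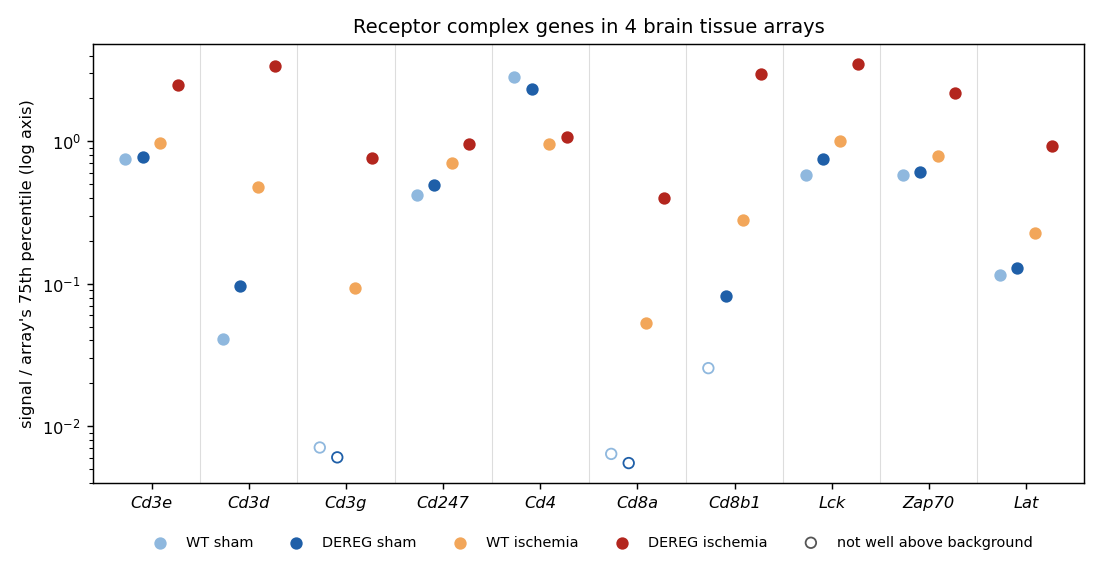
Scaled signals of the brightest probe of each gene on the 4 tissue arrays (signal divided by the array's 75th percentile, log axis). Each point is 1 array and open points are not well above background. DEREG ischemia is the highest point for every gene except Cd4, for which both shams lie higher. Heights of different genes come from different probes and cannot be compared.

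The coreceptors went apart. Cd8a, the alpha chain of CD8, was not well above background on either sham array (2.63 in WT and 2.42 in DEREG). It had a signal of 22.4 in WT ischemia and 164 in DEREG ischemia, a difference of 2.90. The second probe was above background in DEREG ischemia only, at 22.9, and set a bound of at least 1.05. WT ischemia exceeded WT sham by at least 0.90, a bound under 2-fold, and DEREG ischemia exceeded its sham by at least 3.996.

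Cd8b1, the beta chain that pairs with Cd8a on conventional CD8 T cells, had 10.5 in WT sham, not well above background, and 36.2 in DEREG sham. It had 118 in WT ischemia and 1223 in DEREG ischemia. The order of the arrays was that of Cd3d. The ischemic arrays differed 10.5-fold (3.39), the largest difference among the 10 genes.

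Cd4, the coreceptor of helper and regulatory T cells, was the only member lower after ischemia. Its bright probe read 1160.0 and 1021 on the WT and DEREG sham arrays, and 404 and 445 on their ischemia arrays. Both sham arrays stood above both ischemic arrays. Ischemia was 2.93-fold lower than sham in WT (-1.55) and 2.16-fold lower in DEREG (-1.11). The second probe had 63.0, 66.1, 16.7 and, not well above background, 11.2 on the same arrays in that order. It too was lower after ischemia, at -1.95 in WT and -2.47 or lower in DEREG. Between the ischemic arrays the bright probe differed by 0.16, while the second probe was lower in DEREG, at -0.55 or below, so the probes disagree in sign there. The 6 neuron markers were all 2-fold lower after ischemia in both genotypes, with medians of -1.91 in WT and -3.13 in DEREG. All 8 macrophage markers and 8 of 9 microglia markers in WT, and all of both lists in DEREG, were 2-fold higher. Of all genes compared, 18.8% were 2-fold higher and 18.4% lower in WT, and 22.4% and 22.1% in DEREG. The part of these cell types in the Cd4 signal was not tested.

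The proximal signalling genes were also highest in DEREG ischemia. Lck, the kinase bound to the coreceptors, had signals of 240.0 (WT) and 329 (DEREG) after sham surgery, and 422 (WT) and 1445 (DEREG) after ischemia. The difference between the ischemic arrays was 1.80, and 2.02 on the second probe, whose signals were 17.1 and 68.0. The first 3 arrays lay within 2-fold of each other on both probes. Zap70, the kinase that binds the phosphorylated chains, had 237, 266, 329.8 and 908 on the arrays in the same order. DEREG ischemia was again the only array set apart, by 1.48 over WT ischemia. The second Zap70 probe gave 1.43, from 90.9 and 240.1.

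Lat, the adaptor, read 47.1 and 56.4 on the WT and DEREG sham arrays, and 95.8 and 386 on their ischemia arrays. The shams were lowest and WT ischemia lay between them and DEREG ischemia. The ischemic arrays differed 4.09-fold (2.03). Ischemia exceeded sham 1.99-fold in WT, just short of 2-fold (1.09 on the log2 scale with the other probe set for scaling), and 7.27-fold in DEREG.

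**Figure D2:**
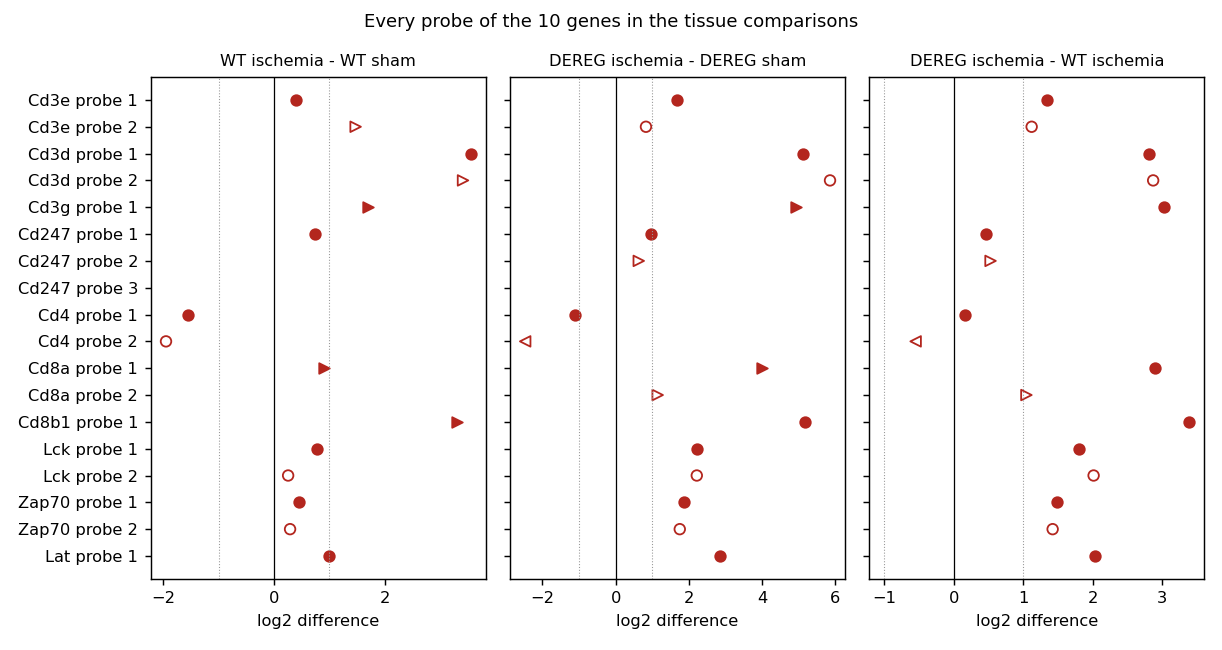
Log2 differences of all probes in 3 tissue comparisons, each panel with its own scale. Filled symbols are the probe used for the gene, open symbols its other probes, and triangles are bounds pointing away from 0. Dotted lines mark 2-fold, and a probe without a symbol has no value. In the right panel the first probes of Cd247 and Cd4 are the filled symbols inside the 2-fold lines.

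Against WT sham, WT ischemia was 2-fold higher for 3 members, Cd3d, Cd3g and Cd8b1, and 2-fold lower for Cd4. In that comparison 18.8% of 16968 genes were 2-fold higher and 18.4% lower, so the count was not far from the background. With normexp correction the Cd3g difference fell short of 2-fold, at 0.47. The members' median was 0.84, beside -0.14 for all genes. Only Cd3d and Cd4 were past 2-fold with both arrays above background. In DEREG, ischemia was 2-fold higher than sham for 8 members, with Cd4 again lower and Cd247 at 1.95-fold. There the background was 22.4% higher and 22.1% lower of 17161 genes, and the medians were 2.54 for the members and -0.06 for all genes.

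The difference of these differences, ischemia against sham in DEREG minus the same in WT, could be computed for the 7 members above background on all 4 tissue arrays. It was past 2-fold for 5 of them, where 0.906% of 15120 genes were 2-fold higher in this way and 5.21% lower. The values were 1.87 for Lat, 1.58 for Cd3d, 1.44 for Lck, 1.41 for Zap70 and 1.28 for Cd3e. Cd4 at 0.44 and Cd247 at 0.22 stayed within 2-fold. The second Cd3e probe has no such value, since it was not well above background in WT sham. Against sham it rose by at least 1.47 in WT and by 0.83 in DEREG. That order is opposite to the bright probe, which rose by 0.39 and 1.68, so the Cd3e value rests on the bright probe alone.

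Over all genes the sham arrays differed little. Cd3d (1.24) and Cd8b1 (at least 1.52) were 2-fold higher in DEREG sham than in WT sham, 2 of the 8 members compared, where 0.590% of 16273 genes were higher and 0.449% lower. All of these are dim signals: 16.8 against 42.5 for Cd3d and 10.5 against 36.2 for Cd8b1. With normexp background correction neither was past 2-fold. On their brightest probes the remaining 6 lay between -0.28 (Cd4) and 0.36 (Lck), and Cd3g and Cd8a were not above background on either sham. The dim Cd3e probe was higher in DEREG sham by at least 1.77 (42.8 against 8.22), while the bright one gave 0.06.

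Some probes already had signal in the shams: Cd3e read 308 in WT sham against 412 in WT ischemia, and Zap70 237 against 329.8, while Cd3d read 16.8 against 201. A fold of the whole signal includes that share. When each ischemic signal was taken as its excess over the sham array of the same genotype, DEREG exceeded WT 7.36-fold for Cd3e, 7.63-fold for Zap70, 6.53-fold for Lck and 7.08-fold for Lat. It exceeded WT 7.50-fold for Cd3d, 8.82-fold for Cd3g, 8.37-fold for Cd8a and 11.2-fold for Cd8b1. For Cd3g, Cd8a and Cd8b1 at least 1 sham was not well above background, and with such shams set to the lowest signal above background the ratios were 11.5, 15.1 and 11.4, so these 3 are less certain. On its bright probe Cd247 stayed apart at 1.66-fold. Its other probes have no ratio because neither was well above background in WT ischemia. Cd4 has no ratio because ischemia lay below sham in both genotypes. The second probes spread more widely, at 1.27 for Cd3e, 7.95 for Cd3d, 10.4 for Zap70 and 19.6 for Lck, whose excess in WT was close to 0. The WT sham of the second Cd3e and Cd3d probes was not well above background. This measure was chosen after seeing the data, and its dependence on the scaling was not tested. The Cd3e and Zap70 ratios are uncertain too, because they rest on small excesses in WT. These were 0.23 and 0.21 in scaled signal, over WT shams at 0.75 and 0.58.

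**Figure D3:**
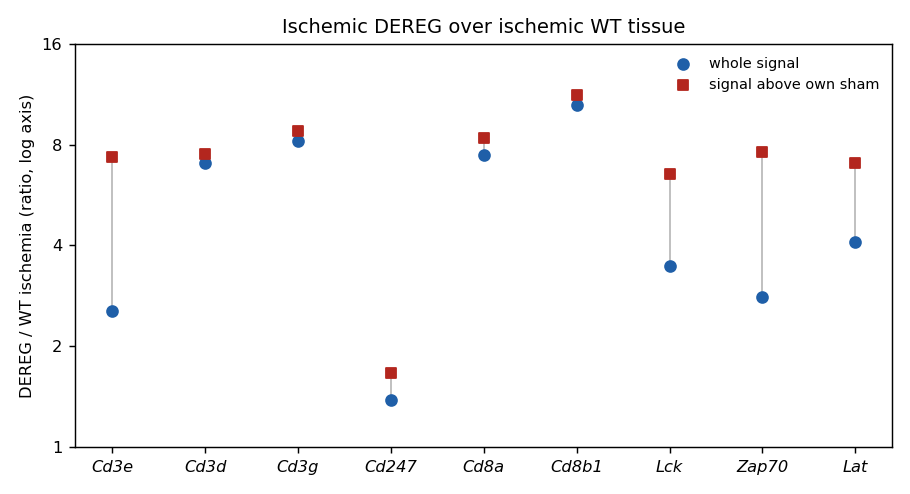
DEREG ischemia over WT ischemia for the probe used of each gene except Cd4, as a ratio on a log axis. Circles are the whole scaled signal and squares the excess over the sham array of the same genotype. Of the squares, 7 lie between 6.53 and 8.82, Cd8b1 lies at 11.2 and Cd247 at 1.66. How the squares depend on the scaling was not tested. For Cd3g, Cd8a and Cd8b1 at least 1 sham was not well above background.

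Other genes of T cell signalling had lower medians between the ischemic arrays than the receptor genes. Their counts stand beside 2.36% of all genes 2-fold higher in DEREG and 5.37% lower. Of 24 other signalling genes, 4 were 2-fold higher in DEREG and 1 lower, with a median of 0.36. Skap1, an adaptor for adhesion, was at 2.05. Rasgrp1, a Ras activator also expressed in neurons, was at -1.31. Of 17 negative regulators, 4 were 2-fold higher and none lower, with a median of 0.50. They include Sla2, an adaptor that lowers receptor levels, at 1.32 and Dok2, an adaptor that limits Ras signalling, at 1.11.

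Among T cell surface genes, 6 of the 12 compared were 2-fold higher in DEREG ischemia and none lower, with a median of 1.06. The shares of all genes were again 2.36% higher and 5.37% lower. Cd2, an adhesion receptor, was at 2.77 (signals 66.9 and 449) and Icos, a costimulatory receptor, at 2.28. Cd28, the main costimulatory receptor, was at 0.04, from 525 in WT ischemia and 532 in DEREG ischemia. Thy1, which neurons also express, was at -0.51. Of 15 lineage transcription factors, Gata3, needed for CD4 T cell and Th2 identity, was the only one 2-fold higher, at 2.99. Bcl11b, needed for T cell commitment and also expressed in neurons, was at -1.12.

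The marker lists of other cells were read beside these values and the same shares of all genes, 2.36% higher and 5.37% lower. Of 14 CD8 T and NK cell markers, 12 were compared between the ischemic arrays, 9 were 2-fold higher in DEREG and none lower, with a median of 1.35. Gzmb and Gzma, cytotoxic granule proteases, were at 2.85 and 2.78, and Nkg7, a granule protein, at 2.84. The list's summed scaled signal was 10.6 (WT) and 9.66 (DEREG) after sham surgery, and 7.09 (WT) and 18.6 (DEREG) after ischemia. Much of the sham sum was Klrb1c, an NK cell receptor gene, whose signal was 4278 in WT sham. By count, 8 of 10 markers compared were 2-fold higher and 1 lower in WT ischemia than in WT sham. In DEREG, 10 of 12 were higher and 1 lower. For these comparisons with sham, 18.8% of all genes were higher and 18.4% lower in WT, and 22.4% and 22.1% in DEREG. Between the ischemic arrays, 2 of 5 B cell markers compared were 2-fold higher in DEREG, with a median of 0.64.

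None of 9 microglia and none of 8 macrophage markers differed 2-fold between the ischemic arrays, with medians of 0.22 and 0.28. Their summed scaled signals were 539 and 254 in WT ischemia and 657 and 293 in DEREG ischemia. Of 6 neuron markers, 3 were 2-fold lower in DEREG, where 5.37% of all genes were. The neuron list had a median of -1.08 and a summed signal of 39.1 against 88.3. The part of unequal tissue makeup in the receptor differences was not tested.

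**Figure D4:**
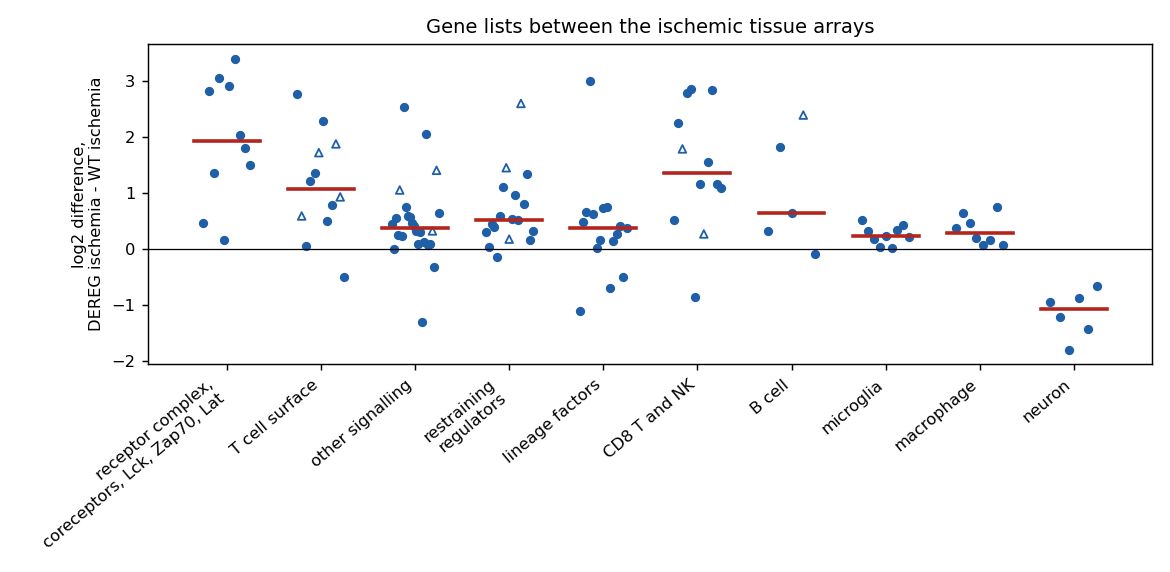
Log2 differences between the DEREG and WT ischemia arrays for the 10 receptor genes (left) and 9 other gene lists. Each point is a gene, open triangles are bounds, and red lines are medians. The receptor genes have the highest median, 1.92, followed by the CD8 T and NK cell markers at 1.35 and the T cell surface genes at 1.06.

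In the CD4+ T cells, the brightest probes of most receptor genes were within 2-fold between brain and spleen, apart from the CD8 chains. Between brain Treg and spleen Treg, 1 of 10 members, Cd8a, was 2-fold higher and none lower, where 17.2% of 13779 genes were 2-fold higher and 11.7% lower. Between brain nonTreg and spleen nonTreg, Cd8a and Cd8b1 were higher and none lower, where 17.8% of 13404 genes were higher and 12.1% lower. The other members lay between -0.39 (Lat) and 0.80 (Cd8b1) in Treg, and between -0.28 (Cd3e) and 0.82 (Cd247) in nonTreg. With normexp correction the Cd8a difference in Treg fell just short of 2-fold, at 0.99. Microglia markers were 2-fold higher in brain for 8 of 9 compared in Treg and 7 of 8 in nonTreg. Their summed scaled signal was 1.49 in spleen and 40.5 in brain Treg, and 1.57 in spleen and 16.3 in brain nonTreg. Macrophage markers were 2-fold higher in brain for 7 of 7 compared in both cell types, and endothelial markers for 4 of 5. Of 7 dendritic cell markers, 6 were higher and 1 lower in Treg, and 5 higher and 0 lower in nonTreg. Of 2 neuron markers compared, 0 were higher and 1 lower in each. The part of RNA from such other cells in these comparisons was not tested.

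Cd3d had signals of 44399.8 in spleen nonTreg, 48531 in spleen Treg, 52427 in brain nonTreg and 54465 in brain Treg. Its other probe had 33359, 35787, 38662 and 40968 in that order. The 4 arrays were alike, and after scaling brain minus spleen was -0.28 in Treg and -0.26 in nonTreg on the first probe, and -0.25 and -0.28 on the second. Cd3g was as even, with signals of 12178, 12762, 15189.7 and 17215 in the same order and a brain minus spleen difference of -0.18 in nonTreg.

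Cd3e showed a disagreement between its probes. The bright probe had 26946 in spleen nonTreg, 27579.9 in spleen Treg, 31236 in brain nonTreg and 28868 in brain Treg, and the brain arrays were lower after scaling. The brain minus spleen difference was -0.28 in nonTreg and -0.38 in Treg. The dim probe had 545, 612, 1421 and 1022, and there brain was higher, by 0.88 in nonTreg and 0.30 in Treg. No direction can be given for Cd3e between brain and spleen. Among all further probes of the members, 4 of 8 had the other sign in each brain against spleen comparison, and none did between Treg and nonTreg.

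Cd247 had 2695 in spleen nonTreg, 2831 in spleen Treg, 6725 in brain nonTreg and 4270.4 in brain Treg on its bright probe. Brain nonTreg stood out, 0.82 above spleen nonTreg, and brain Treg lay 0.15 above spleen Treg. The second probe, at 461, 350.1, 942 and 604, gave 0.53 and 0.34. The third probe went the other way, with 95.3 and 102 in spleen against 44.7 and 33.5 in brain. Its brain minus spleen differences were -1.59 in nonTreg and -2.05 in Treg. The array's annotation gives the 3 probes 3 different RefSeq transcript accessions.

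Lck and Zap70 repeated the pattern of Cd3e between probes. The bright Lck probe had 37108, 37614, 43974 and 40021 in spleen nonTreg, spleen Treg, brain nonTreg and brain Treg, and the brain minus spleen differences were -0.25 in nonTreg and -0.36 in Treg. The dim one had 1089.8, 1070.5, 2431 and 1743, with differences of 0.66 and 0.26. The sign thus turned between probes in both cell types. The bright Zap70 probe had 17060.5, 20453, 23762 and 22902, with -0.02 and -0.28. The other Zap70 probe had 3772, 4839.6, 7327 and 6617, with 0.46 and 0.01. All of these stayed within 2-fold. Lat had 13542, 12432, 16009 and 12896, and brain Treg was the lowest after scaling, at -0.39 against spleen Treg.

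Cd4 was well above background on all 4 T cell arrays. Its bright probe had 5879 in spleen nonTreg, 4476 in spleen Treg, 11187 in brain nonTreg and 7580.1 in brain Treg. Treg lay below nonTreg at both sites, with differences of -0.68 in brain and -0.57 in spleen. The second probe, at 308, 250.1, 479.5 and 358, gave -0.54 and -0.47. Brain exceeded spleen by 0.43 in nonTreg and 0.31 in Treg on the bright probe, and by 0.14 and 0.07 on the second.

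**Figure D5:**
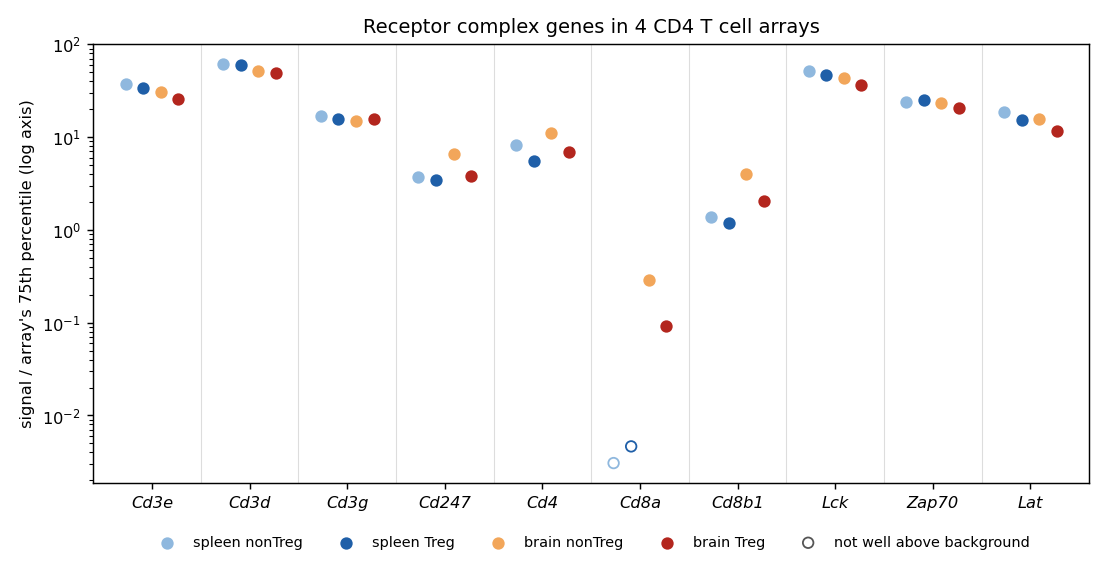
Scaled signals of the brightest probe of each gene on the 4 CD4+ T cell arrays (signal divided by the array's 75th percentile, log axis). Each point is 1 array and open points are not well above background. Only Cd8a and Cd8b1 spread widely, with brain nonTreg highest and brain Treg second. Heights of different genes cannot be compared.

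The CD8 chains, which CD4+ T cells do not normally carry, were the members past 2-fold between T cell arrays on their brightest probes. Cd8a had 2.22 in spleen nonTreg and 3.79 in spleen Treg, neither well above background. It had 297 in brain nonTreg and 102 in brain Treg. Brain exceeded spleen by at least 4.41 in nonTreg and at least 3.08 in Treg. These bounds depended on the processing. They fell to 2.08 and 0.99 with normexp correction, and to 3.31 and 1.93 with the median over probes. The second probe was likewise above background in brain only, at 64.6 in nonTreg and 20.8 in Treg, with bounds of 2.21 and 0.78. Brain Treg lay below brain nonTreg, at -1.66 on the first probe and -1.76 on the second.

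Cd8b1 was above background on every T cell array, spleen included, with 995 in spleen nonTreg, 961 in spleen Treg, 4120.1 in brain nonTreg and 2277 in brain Treg. Brain was higher by 1.55 in nonTreg and 0.80 in Treg. Within brain, Treg lay below nonTreg at -0.98, close to 2-fold, and under quantile normalization, the other probe set for scaling and the deposited series table it was past 2-fold. In spleen the difference was -0.22.

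The markers of CD8 T and NK cells were, like the CD8 chains, higher in brain than in spleen and lower in brain Treg than in brain nonTreg, but they parted from them in spleen. Of the 14 markers, 8 were 2-fold higher in brain nonTreg than in spleen nonTreg and none lower, with a median of 1.69. In Treg, 6 of 13 were higher in brain and none lower, with a median of 0.88. Of all genes compared, 17.8% were 2-fold higher in brain in nonTreg and 17.2% in Treg. Between brain Treg and brain nonTreg, 10 of 14 were 2-fold lower and none higher, with a median of -1.48, where 2.86% of all genes were lower. Between spleen Treg and spleen nonTreg, 8 of 11 were 2-fold lower and none higher, with a median of -1.71, where 3.24% of all genes were lower. Cd8b1 was at -0.22 there, and Cd8a was above background on neither spleen array. The summed scaled signal of the list was 5.15 in spleen nonTreg, 3.11 in spleen Treg, 37.9 in brain nonTreg and 18.1 in brain Treg. Its part in the CD8 chain differences was not tested.

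Treg and nonTreg cells were otherwise close for these genes. In brain, 1 of 10 members (Cd8a) was 2-fold lower in Treg and none higher, where 2.86% of 13756 genes were lower and 4.63% higher. In brain 9 of the 10 lay below 0, with a median of -0.34 against 0.01 for all genes, although the Cd3d value turned from -0.07 to 0.03 under quantile normalization. Among them Cd247 was at -0.78 and its further probes at -0.76 and -0.54. In spleen none of the 9 members compared was past 2-fold, where 5.38% of 12546 genes were higher and 3.24% lower. There too 8 of the 9 lay below 0, with a median of -0.14 against -0.01 for all genes. Microglia markers were also unequal in brain, 8 of 9 being 2-fold higher in Treg than in nonTreg with a median of 1.33, and the part of such RNA was not tested.

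When the brain minus spleen difference of nonTreg was subtracted from that of Treg, the result was past 2-fold for none of the 9 members that could be compared, where 2.30% of 11300 genes were higher and 3.79% lower. The values furthest from 0 were -0.75 for Cd8b1 and -0.67 for Cd247.

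The other genes of the pathway were read beside the same shares of all genes, 17.2% higher and 11.7% lower in Treg and 17.8% and 12.1% in nonTreg. Of 24 further signalling genes, 1 was higher and 4 lower in brain Treg than in spleen Treg, and 1 higher and 3 lower in brain nonTreg than in spleen nonTreg. Orai1, the pore of the calcium channel opened by receptor signalling, was higher in both, by 1.45 in Treg and 1.84 in nonTreg. Sos1, a Ras activator recruited to Lat, was lower in both, at -1.71 and -1.95. Of 17 negative regulators, 1 was higher and 2 lower in brain Treg, and 2 higher and 1 lower in brain nonTreg. Sla, an adaptor that promotes loss of the receptor complex, was higher in brain by 2.18 in Treg (signals 1548 and 9546) and 2.90 in nonTreg. Dgkz, which ends diacylglycerol signalling, was at -1.36 and -1.19.

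Of 14 surface genes, 1 was higher and 2 lower in brain Treg, and 3 were higher and 1 lower in brain nonTreg. Icos was at 2.83 in Treg and 3.09 in nonTreg, and Cd27, a costimulatory receptor of resting T cells, at -1.13 and -1.09. Of the 9 genes listed for the variable receptor's own chains and the pre-T cell receptor, only Ptcra had a named probe, and it was not well above background on any array.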

How the data were processed

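RNA from 8 mouse samples was labelled in 1 colour and hybridised to 8 arrays (Agilent SurePrint G3 Mouse 60K), 1 per group. Per the file headers, all arrays share 1 slide and 1 scan time, with T cell and tissue arrays in different rows. Scanner files came from Agilent Feature Extraction (10.7.1.1 according to the submitters' processing notes). Per the file headers, their processed intensity had its background subtracted and received no between-array normalization. The deposited table of the whole series has values of a linear signal that equalled the processed intensity divided by a constant for 99.89% to 99.97% of probes of each array (tolerance 0.1%, column medians 0.068 to 0.123). Scale and centring follow from that constant, and the table was used as an alternative.

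Of 56605 probes, 32994 matched 1 symbol through their RefSeq accession, 0 matched several and 23611 stayed unnamed. Signals were averaged over a probe's spots, log2-transformed and scaled by the array's 75th percentile, over all probes (tissue) or over those well above background on all 4 arrays (T cells). The brightest probe on average over the set stood for its gene, and every probe of the members is given. A gene entered a comparison when above background on 1 of its arrays. Bounds were taken against the higher of the dim signal and the lowest signal well above background on that array. Counts are at 2-fold. No test was run. Spots with an outlier flag (69 to 109 per array) were left out, and 0 spots were saturated. The members, gene lists (172 symbols) and named genes were chosen with earlier results of these data known. Named genes were all members and, per list, the 3 highest and 3 lowest measured differences and the largest bounds, a few of which are not reported here. The 8 alternatives were normexp correction (limma 3.58.1, offset 50, on the median spot and background signals), quantile normalization, the other probe set for scaling, scaling by the median, genes measured on both arrays alone, dim probes left unfiltered, the median of a gene's probes and the series table. The counting was tested on simulated arrays. Python 3.11.15 and R 4.3.3 were used.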

Additional observations from a re-analysis of the deposited data

Results flagged for a closer look

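For 3 genes, effects under the same contrast had opposite signs in a pair of settings. With 1 array per group these differences were not tested. Cd3g was higher in brain Treg than in brain nonTreg by 0.06 and lower in spleen Treg than in spleen nonTreg by 0.11 (log2), a gap of 0.17. Zap70 was at -0.17 in brain and 0.09 in spleen for the same contrast, a gap of -0.26. Cd4 was higher in DEREG than in WT ischemia by 0.16 and at -0.28 between the DEREG and WT shams, a gap of 0.44. All of these single differences are far below 2-fold.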

How the results depend on the processing

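No paired analysis was possible because each group has 1 array. Of 80 recomputed counts of members at 2-fold, 69 stayed within 1.5 times the reported count and 11 did not; the reported counts follow as "from". With normexp correction, brain Treg against spleen Treg went from 1 to 0 and the shams from 2 to 0. With only genes measured on both arrays, brain Treg against spleen Treg went from 1 to 0, brain nonTreg against spleen nonTreg from 2 to 1, WT ischemia against sham from 4 to 2 and the shams from 2 to 1. Brain Treg against brain nonTreg went from 1 to 2 with quantile normalization, the other probe set and the series table. With no filter on dim probes, the difference of differences went from 0 to 1 in T cells and from 5 to 8 in tissue. The cause of these changes was not tested, except that leaving out genes not measured on both arrays and dropping the filter change which genes are compared. No difference past 2-fold changed sign. Differences within 2-fold changed sign in 3 cases with the median as scaling point, 4 with quantile normalization, 7 with the median over probes (which takes in dim probes as if measured), 2 with the other probe set and 2 with the series table. Scaling by the median moved the median of all genes in WT ischemia against sham from -0.14 to -0.31, and the share of higher among called genes in the tissue difference of differences from 14.8% to 26.5%. That share between the shams went from 56.8% (96 higher, 73 lower) to 84.6% with normexp, where only 11 genes were higher and 2 lower. With 1 array per group the signal over background limits the dim probes: Cd3g, Cd8a and Cd8b1 have only bounds against WT sham.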

Other observations

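Genes whose scaled signals followed a member most closely were found by the root mean square distance between centred log2 values over the 4 arrays of a set. In the T cell arrays the rule (above background on all 4 arrays and spanning over 1 on the log2 scale) was met by Cd8b1, with a span of 1.77. Of 11057 genes, the nearest were 9330199G10Rik (0.062), Oplah (0.066), Ly6c2 (0.083), Ly6c1 (0.089) and Cyb561a3 (0.112). Ly6c1 and Ly6c2 encode surface proteins of many CD8 T cells and monocytes.

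In the tissue arrays the same was done for Cd4, Cd3d and Lat, chosen after seeing the data, over 14760 genes. The other members with a value on all 4 arrays were not searched. Among the nearest to Lat were Ptprcap (0.18), a partner of the leukocyte phosphatase CD45, Il12rb1 (0.18), Dusp2 (0.19) and Il2rb (0.23). Nearest to Cd4 were Acyp2 (0.021), Inf2 (0.049), Rps6ka5 (0.051), Lrrn1 (0.057) and Ttc9 (0.060). Nearest to Cd3d, at larger distances, were the interferon-induced Gbp5 (0.46) and the lymphocyte protease gene Ctsw (0.53). Each distance rests on 4 arrays, and nothing about shared function or control is inferred.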
